A study of Homo sapiens with 6 samples.

Results

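The genes described here encode 9 proteins that act on the androgen receptor: the p160 coactivators NCOA1, NCOA2 and NCOA3, the histone acetyltransferases EP300 and CREBBP, the histone demethylase KDM1A, and the ubiquitin ligases STUB1, SKP2 and SIAH2. They were chosen by name, with earlier results of these data known. Of the 9, 8 had a row among the 17356 gene symbols, all 8 among the 16548 genes tested. NCOA3 had no row in the values used here. The samples were 6 RNA-seq libraries of C4-2B-ENZR, an enzalutamide-resistant prostate cancer line (enzalutamide blocks the receptor). Control siRNA had been given to the cells of 3 libraries (NC), and siRNA aimed at KIF15, a kinesin gene, to those of the other 3 (siKIF15). All 6 share the cell line and a medium with serum. The siRNA sequences, the time after transfection and whether the replicates were separate cultures are not given in the sources used here, so the p-values measure only the spread between libraries, which may be technical. The deposited value is a signal per gene with no stated unit and unknown sequencing depth, and it is given below as deposited. Group differences are log2 changes of siKIF15 minus NC on log2(value + 1), tested with limma over all genes at a Benjamini-Hochberg adjusted p of 0.05.

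The androgen receptor is a hormone-activated transcription factor that drives the growth of most prostate cancers. Once bound to DNA it recruits p160 proteins, which bring in the acetyltransferases EP300 (p300) and CREBBP (CBP) and open the chromatin. KDM1A (LSD1) removes methyl groups from histone H3 and can act with the receptor as activator or repressor. The amount of receptor protein is set in part by ubiquitin ligases: STUB1 (CHIP) marks chaperone-bound clients for the proteasome, SKP2 is the substrate-binding subunit of a cullin ligase best known for degrading the cell cycle inhibitor p27, and SIAH2 is a RING ligase known in prostate cancer for removing corepressor-bound receptor from chromatin. Transcript values say nothing of the activity of these proteins.

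None of the 8 measured genes passed the limma test at an adjusted p of 0.05, where 18% of all genes tested did. At an unadjusted p under 0.05 there were 3, EP300 and NCOA2 with lower means and SIAH2 with a higher mean, and 30.6% of all genes tested met that threshold (15.7% higher and 15% lower). The siKIF15 and NC libraries did not overlap for 3 of the 8 (EP300 and KDM1A lower, SIAH2 higher), against 34.8% of all genes tested (18.3% higher and 16.5% lower). These shares are near or under the background and are no result about the 8 genes. Of all genes tested 9.66% were called higher and 8.33% lower. The log2 changes lay between -0.27 and 0.21, with a median of -0.09 beside -0.004 over all genes tested. Of the changes, 6 were below 0 and 2, those of SKP2 and SIAH2, above it.

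The targeted transcript did not mark the groups. KIF15 had an NC mean of 363 ± 42.4 (SD, n = 3) and an siKIF15 mean of 330.3 ± 34.2, and its log2 change of -0.13 was within the spread between libraries (limma adjusted p = 0.57). Directions below are therefore those of the libraries labelled KIF15 knockdown, called siKIF15. The sums of the values were 49460800 to 50063000 in NC and 50360200 to 53157400 in siKIF15. The 10 luminal prostate markers summed to 296127 to 303451 in NC and 326570 to 350675 in siKIF15, with KLK3, which encodes prostate-specific antigen, at means of 64846 and 68869. Of these 10, 5 rose and 1 fell (60% called, against 18% of all genes tested). Without NC 2 or siKIF15 1 only 1 luminal marker was called. Of the 5 basal markers, 3 were called (60%), and only 1 without siKIF15 1. KRT14 and COL17A1 rose from means of 9.90 and 11.7 to 46.1 and 229.7, and ITGA6, an integrin gene that made up most of the basal sum, fell from 4341 to 3445, while KRT5 averaged 2.96 and TP63 2.07 in siKIF15. The basal markers summed to 4142 to 4541 in NC and to 3490 to 3996 in siKIF15. Of the 5 leukocyte markers with a row, 1 was called, the lysosomal gene CD68, which rose from 1783 to 3264 and made up nearly all of sums of 1673 to 1905 and 2924 to 3590; the defining gene PTPRC averaged 1.58 in NC and lay at the floor of the values in siKIF15. Of 7 fibroblast markers tested, 2 rose (28.6%), PDGFRA and FAP, each from a mean of 0.78 to 5.93 and 6.55. Without NC 1, NC 3, siKIF15 1 or siKIF15 2 no fibroblast marker was called. The 8 with a row summed to 492.3 to 529.8 and 463.3 to 514.7. No endothelial marker was called by limma among 4 tested, none having an unadjusted p under 0.05, and the 5 with a row summed to 325.1 to 351.7 and 337.6 to 429.3, most of it VWF. Their part in the results was not tested. In bulk libraries, fewer cells that express a gene and less of its RNA per cell cannot be told apart.

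**Figure D1:**
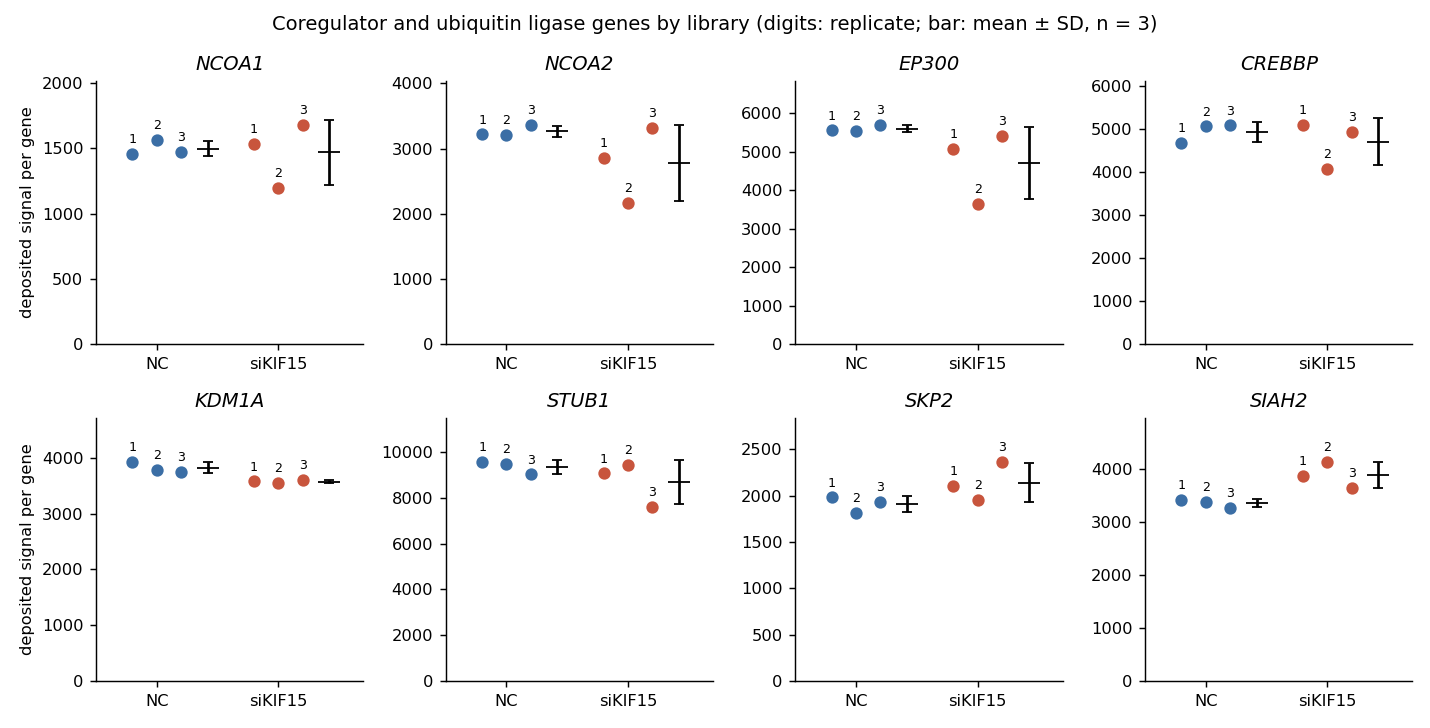
Deposited signal of the 8 measured genes in each library (points, with the replicate number above each; bar, mean ± SD, n = 3); each vertical axis starts at 0. In NCOA1, NCOA2, EP300, CREBBP and KDM1A the lowest point is siKIF15 2, whereas STUB1 is lowest in siKIF15 3. SIAH2 is higher in every siKIF15 library than in any NC library.

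Among the p160 coactivators, NCOA1 (SRC-1; GRCh38 chromosome 2, 24491914 to 24770702, plus strand) had values of 1455, 1567 and 1473 in NC 1, 2 and 3, against 1534, 1194 and 1679 in siKIF15 1, 2 and 3. The groups overlapped, with both the lowest and the highest value in siKIF15. Its log2 change was -0.04 (95% limits -0.28 to 0.19; limma adjusted p = 0.83), and without siKIF15 2 it was 0.10 (adjusted p = 0.52). NCOA2 (SRC-2), on chromosome 8, had NC values of 3219, 3210 and 3365, against siKIF15 values of 2855, 2170 and 3322. Here siKIF15 3 lay within the NC range, siKIF15 1 somewhat below it and siKIF15 2 far below it. The log2 change of NCOA2 came to -0.25 ± 0.12 (SE; 95% limits -0.50 to -0.01; limma adjusted p = 0.15). It was -0.08 without siKIF15 2 (adjusted p = 0.56) and -0.39 without siKIF15 3 (adjusted p = 0.0061).

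NCOA3 (SRC-3 or AIB1; GENCODE 29, GRCh38 chromosome 20, 47501902 to 47656877, plus strand), the p160 gene best known for amplification in breast cancer, was not analysed here. Its chromosome was poorly represented in the values. Of the 543 protein-coding genes that GENCODE places on chromosome 20, 249 (45.9%) had a row, against 67.8% to 91.2% on the other autosomes and the X chromosome. The median NC value of the 251 rows on chromosome 20 was 1.83, while the medians of the other chromosomes ran from 349.4 (X) to 1471 (chromosome 22). Only 1 row on chromosome 20 averaged over 100 in NC. The nuclear receptor coactivator gene NCOA6 (chromosome 20, 34689097 to 34825649) had NC values of 0, 3.69 and 3.83, against siKIF15 values of 0.90, 0.01 and 1.03, and NCOA5, also on chromosome 20, had no row. The ubiquitin enzyme genes UBE2V1 and ITCH, on the same chromosome, averaged 5.19 and 1.56 in NC. Values this low on chromosome 20 are not read as absence of the transcripts.

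**Figure D2:**
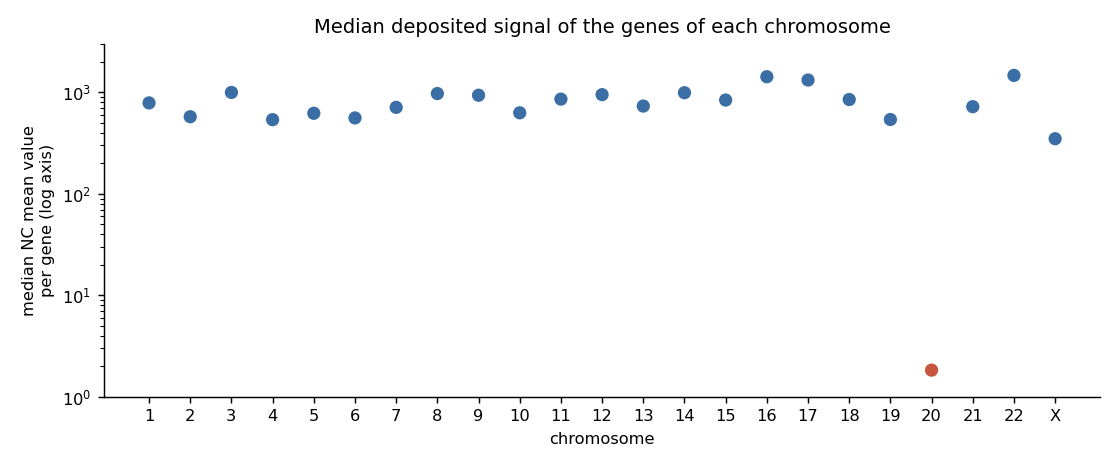
Median over genes of the NC mean value, by chromosome (vertical axis logarithmic, deposited signal). Chromosome 20, which carries NCOA3, NCOA5 and NCOA6, has a median of 1.83, and every other chromosome shown lies between 349.4 and 1471.

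Of the acetyltransferases, EP300 (chromosome 22, 41091786 to 41180079, plus strand) had NC values of 5549, 5531 and 5691, against siKIF15 values of 5062, 3644 and 5394. All siKIF15 libraries were below all NC libraries, but siKIF15 3 was close to the NC range and siKIF15 2 far from it. EP300 had an NC mean of 5590 ± 87.4 and an siKIF15 mean of 4700 ± 929.5. Its change was -0.27 ± 0.11 (SE; 95% limits -0.51 to -0.04; limma adjusted p = 0.11). Without siKIF15 2 the change was -0.10 (adjusted p = 0.40), and without siKIF15 3 it was -0.38 (adjusted p = 0.012). CREBBP (chromosome 16, 3725054 to 3880726, minus strand) had NC values of 4671, 5058 and 5082, against siKIF15 values of 5094, 4074 and 4934, with siKIF15 1 just above the NC range, siKIF15 3 within it and siKIF15 2 below it. Its log2 change was -0.08 (95% limits -0.26 to 0.10; adjusted p = 0.59).

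Within a library the ratio of these paralogs can be read without reference to the library's total. It does not remove differences between libraries that follow GC content or transcript length, and all 5 ratios here and below use the values as deposited. The log2 ratio of EP300 to CREBBP was 0.25, 0.13 and 0.16 in NC and -0.01, -0.16 and 0.129 in siKIF15, so siKIF15 3 reached nearly to the NC range. The difference of the means was -0.19 (exact permutation test, two-sided p = 0.10, the smallest that 3 against 3 libraries allow; 0.17 adjusted over 5 ratios). The log2 ratio of NCOA1 to NCOA2 was -1.15, -1.03 and -1.19 in NC and -0.90, -0.86 and -0.98 in siKIF15. It was higher in all 3 siKIF15 libraries than in any NC library, by 0.21 on average (exact permutation p = 0.10, adjusted 0.17). The 5 ratios were chosen after the values had been seen.

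KDM1A (chromosome 1, 23019443 to 23083689, plus strand) had the smallest spread within siKIF15. It had NC values of 3935, 3789 and 3756, against siKIF15 values of 3579, 3548 and 3603. All siKIF15 values were below all NC values, at 93.5% of the NC mean. The log2 change came to -0.10 ± 0.07 (SE; 95% limits -0.24 to 0.05; limma adjusted p = 0.36).

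Of the ubiquitin ligases, STUB1 (chromosome 16, 680224 to 682870, plus strand) had NC values of 9595, 9488 and 9034, against siKIF15 values of 9075, 9441 and 7599. Of the siKIF15 libraries, 2 lay within the NC range and siKIF15 3 below it. Its log2 change was -0.11 (95% limits -0.28 to 0.06; adjusted p = 0.38). It was -0.02 without siKIF15 3 and -0.17 without siKIF15 2, so most of it rested on siKIF15 3. SKP2 (chromosome 5, 36151989 to 36184319, plus strand) had NC values of 1980, 1812 and 1930, against siKIF15 values of 2103, 1949 and 2366. The groups overlapped by 1 library, siKIF15 2. The log2 change of SKP2 came to 0.16 (95% limits -0.02 to 0.35; adjusted p = 0.22), and it was 0.09 without siKIF15 3 and 0.23 without siKIF15 2.

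SIAH2 (chromosome 3, 150741127 to 150763477, minus strand) came nearest to the threshold. It had NC values of 3417, 3379 and 3269, against siKIF15 values of 3863, 4140 and 3650, with no overlap. SIAH2 had an NC mean of 3355 ± 76.9 and an siKIF15 mean of 3885 ± 245.8, 116% of the NC mean, a log2 change of 0.21 ± 0.07 (SE; 95% limits 0.06 to 0.36; limma adjusted p = 0.057). It passed after quantile normalization (adjusted p = 0.049, where 18.8% of all genes were called) and without siKIF15 3 (0.25, adjusted p = 0.0056, where 30.6% were). These were 2 of 19 alternative settings, and SIAH2 was called in no other. Without each of the other libraries in turn its limma adjusted p lay between 0.14 and 0.22. Its paralog SIAH1 had an NC mean of 1674 ± 139.7 and an siKIF15 mean of 1624 ± 106.5. The log2 ratio of SIAH2 to SIAH1 was 0.90, 1.04 and 1.07 in NC and 1.36, 1.30 and 1.11 in siKIF15, higher in all 3 siKIF15 libraries, by 0.25 on average (exact permutation p = 0.10, adjusted 0.17).

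**Figure D3:**
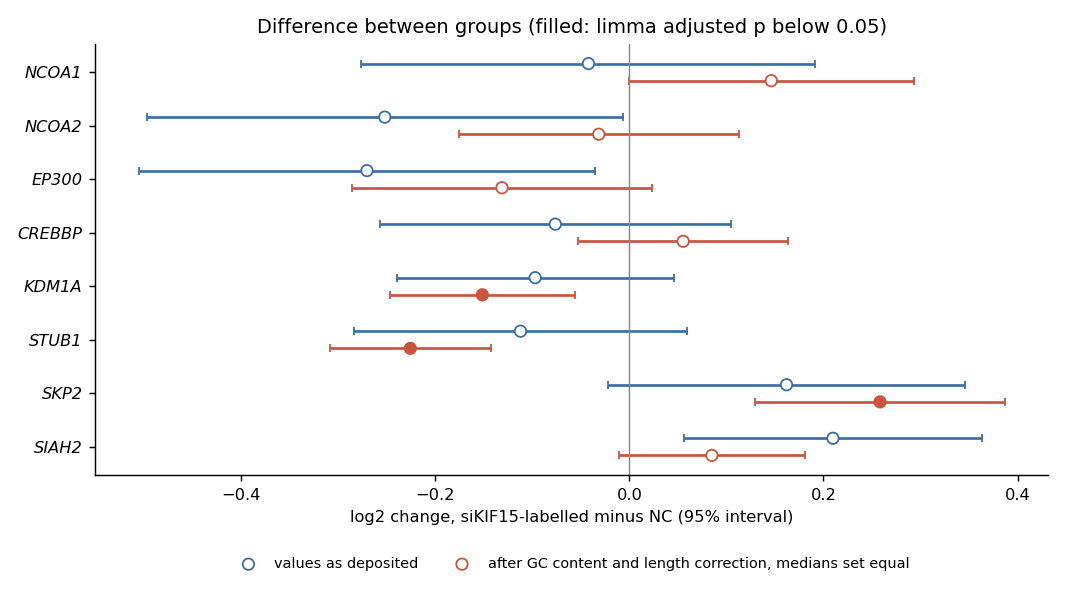
Log2 change of each measured gene, siKIF15 minus NC, with its 95% limits, for the values as deposited and once corrected for GC content and length with library medians set equal; filled points have a limma adjusted p below 0.05. No point is filled for the values as deposited, and KDM1A, STUB1 and SKP2 are filled after the correction.

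The order of levels was compared per kilobase of the longest annotated transcript. In NC, STUB1 stood first at 6008 ± 191 (SD, n = 3) signal per kb, followed by SIAH2 at 1333 ± 30.6 and KDM1A at 1251 ± 31.1. EP300 (583.1 ± 9.12), SKP2 (507.4 ± 22.9), CREBBP (457 ± 21.3), NCOA2 (386.5 ± 10.3) and NCOA1 (202.4 ± 8.11) came after them, and no neighbours in this order overlapped in NC. In siKIF15, SKP2 (569.1 ± 56.2) stood above EP300 (490.3 ± 97), and SKP2 overlapped with EP300, EP300 with CREBBP and CREBBP with NCOA2. The length used is that of the longest transcript, which may not be the one the cells use.

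The 8 genes fell apart by transcript length in where siKIF15 2 lay against the NC mean. NCOA1, NCOA2, EP300 and CREBBP have transcripts of 7405, 8447, 9587 and 10803 bases, whereas STUB1, SIAH2, KDM1A and SKP2 have 1560, 2517, 3059 and 3759, and the median of all genes tested was 3217. In all 4 genes with long transcripts siKIF15 2 was the lowest of the 6 libraries, at log2 differences from the NC mean of -0.33 (NCOA1), -0.59 (NCOA2), -0.62 (EP300) and -0.28 (CREBBP). In the 4 genes with shorter transcripts siKIF15 2 lay between -0.11 (KDM1A) and 0.30 (SIAH2). In KDM1A too siKIF15 2 was the lowest of the 6 libraries. Across 13378 genes, which share these libraries and are no replicates, the change from the NC mean had a Spearman correlation with transcript length of -0.28, -0.46 and -0.07 in siKIF15 1, 2 and 3, and with GC content of 0.42, 0.40 and -0.08. STUB1, the gene with the highest GC content of the 8 (65.8%), was lowest in siKIF15 3. In that library the deviation from the siKIF15 mean, a different measure, had a correlation with GC content of -0.63. For the change from the NC mean that correlation was -0.08, as given above. These relations are descriptions, with no test.

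**Figure D4:**
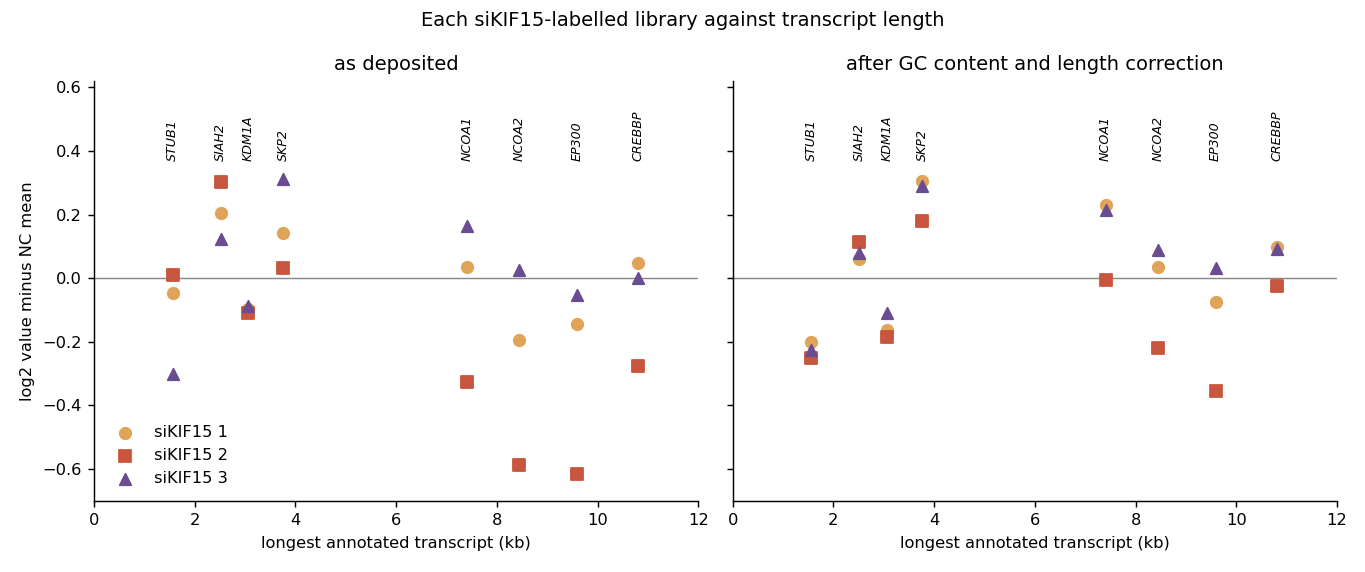
Log2 value minus the NC mean in each siKIF15 library (symbols) against the length of the longest annotated transcript in kb, for the 8 measured genes as deposited (left) and after the correction for GC content and length (right). On the left siKIF15 2 reaches -0.62 in EP300, and on the right the 3 libraries lie closer together for every gene except KDM1A.

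After each library was corrected for GC content and length, with library medians set equal, 3 of the 8 genes passed, where 27.4% of all genes did (14.6% higher and 12.8% lower). STUB1 was then lower, with log2 differences from the NC mean of -0.20, -0.25 and -0.23 in siKIF15 1, 2 and 3, and a change of -0.23 ± 0.04 (SE; limma adjusted p = 0.00055). KDM1A was lower at -0.16, -0.18 and -0.11, a change of -0.15 ± 0.04 (adjusted p = 0.020). SKP2 was higher at 0.31, 0.18 and 0.29, a change of 0.26 ± 0.06 (adjusted p = 0.0052). The SIAH2 change moved to 0.08 (adjusted p = 0.19), that of EP300 moved to -0.13 (adjusted p = 0.20), that of NCOA2 to -0.03, and those of CREBBP and NCOA1 turned to 0.06 and 0.15. The version with medians set equal was chosen after seeing the data. Without setting the medians equal, which left the median change of all genes at -0.08, EP300 passed as well (-0.20, adjusted p = 0.043) beside STUB1, KDM1A and SKP2, where 31.4% of all genes did. Which genes are called thus depends on whether GC content and length are corrected.

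KDM1A and SKP2 are the members called after the correction for which RefSeq gives a promoter window, 1 lower and 1 higher, so the bases before their annotated starts are shown (GRCh38.p14, plus strand, 5′ to 3′, capitals marking the GC box GGGCGG on either strand). The KDM1A sequence is chr1:23019218-23019442 and the SKP2 sequence chr5:36151861-36151988.
KDM1A: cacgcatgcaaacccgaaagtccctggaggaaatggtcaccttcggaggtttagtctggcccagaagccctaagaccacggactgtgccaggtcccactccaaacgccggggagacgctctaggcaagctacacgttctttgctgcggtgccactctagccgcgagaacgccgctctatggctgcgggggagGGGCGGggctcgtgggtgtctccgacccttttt
SKP2: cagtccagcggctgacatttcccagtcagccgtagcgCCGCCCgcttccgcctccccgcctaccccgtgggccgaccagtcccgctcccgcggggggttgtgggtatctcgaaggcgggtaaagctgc
Each holds 1 GC box. In the windows of 250 bases before the start site, 7 of the 9 windows held a GC box, against 42.6% of 35116 RefSeq promoters. The 9 windows belong to 6 of the measured genes, and every one of these except EP300 had a window with a GC box. No window of NCOA2 or STUB1 was searched, and NCOA1 and CREBBP had more than 1 window each. Both strands were searched and matches could overlap. The E2F motif TTTCCCGC was in none of the 9 windows and in 1.39% of all promoters, and the CCAAT box was in 1 of the 9, a window of NCOA1, and in 32% of all. A match is a description of letters and not a binding site.

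Genes that work with these 8 were described from 7 lists. The lists were chosen with earlier results of these data known, so their shares beside those of all genes are descriptions and no test. Without single libraries the number of all genes called ran from 1184 (without siKIF15 1) to 5077 (without siKIF15 3). NCOA7, UXT, HDAC2, GSE1, FKBP5, HSPA1B, STIP1, DNAJB1, MDM2 and UBE3A were named after their values had been seen. Of 42 other coactivator genes tested, 1 rose and 3 fell (9.52% called, against 18% of all genes; median log2 change -0.04). After the GC content and length correction with medians set equal, 4 were higher and 2 lower (median -0.02), where 27.4% of all genes were called. NCOA7, a coactivator gene, was among the higher (0.31, limma adjusted p = 0.0031), and UXT, another gene of the list, among the lower (-0.22, adjusted p = 0.0041). SMARCA2, an ATPase of the SWI/SNF chromatin remodeller, fell from 3979 ± 267.7 to 3127 ± 280.2, a log2 change of -0.35 (limma adjusted p = 0.0079) that was -0.16 after the correction (adjusted p = 0.029). The histone methyltransferase genes KMT2C and KMT2A fell by 0.50 and 0.38 on the log2 scale, and their transcripts of 16862 and 16628 bases are longer than those of the 8 genes. Neither was called after the correction (-0.18, adjusted p = 0.073, and -0.08, adjusted p = 0.38). SMARCE1, another SWI/SNF subunit, rose from 4404 ± 59.6 to 5096 ± 135.1 (0.21, adjusted p = 0.037; 0.36 after the correction). Without siKIF15 3 the number called was 18, where 30.6% of all genes were called, and without NC 2, NC 3 or siKIF15 1 it was 0.

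KDM1A works in complexes with histone deacetylases and shares partners with corepressors. Of the 23 genes of this list, 2 rose and 6 fell (34.8% called, against 18% of all genes; median -0.06). After the correction the balance turned, with 4 higher and 2 lower (median 0.04), where 27.4% of all genes were called. HDAC1, one of the deacetylases of the KDM1A complex, rose from 13943 ± 588.1 to 17511 ± 853.3, a log2 change of 0.33 (adjusted p = 0.0035), and remained called without each library in turn. ZMYM2, a zinc finger partner of that complex, fell from 3077 ± 48.4 to 2322 ± 379.8, TBL1XR1, a subunit of the NCOR corepressor complex, fell from 22821 ± 340.4 to 17729 ± 2677, and NRIP1, a ligand-dependent corepressor of nuclear receptors, fell from 690.6 ± 50.2 to 513.3 ± 57.1. After the correction HDAC1 was still called (0.24, adjusted p = 0.00048), while ZMYM2, TBL1XR1 and NRIP1 were not (-0.08, -0.06 and -0.17). HDAC2, the other deacetylase of that complex, did not pass as deposited (-0.09, adjusted p = 0.47, groups overlapping) and was higher after the correction (0.22, adjusted p = 0.045). GSE1, also of this list, did not pass as deposited (-0.19, limma adjusted p = 0.092) and was lower after the correction (-0.12, adjusted p = 0.031). The number called ran from 1 without NC 2 or siKIF15 1 to 13 without siKIF15 3, where 30.6% of all genes were called.

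Chaperone genes that hold the receptor in its ligand-binding form gave no call by limma among 18 tested (median -0.04), where 18% of all genes were called. At an unadjusted p under 0.05 there were 2, and 30.6% of all genes met that threshold. Without siKIF15 3 there were 3 calls, where 30.6% of all genes were called. After the correction 1 was higher and 3 lower, where 27.4% of all genes were called (14.6% higher and 12.8% lower). The higher was FKBP5 (0.35, limma adjusted p = 0.00010). The lower were HSPA1B (-0.24, adjusted p = 0.0014), STIP1 (-0.17, adjusted p = 0.0037) and DNAJB1 (-0.21, adjusted p = 0.00058).

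In the list for the SKP2 ligase and its substrates, 4 of 13 genes rose and none fell (30.8% called, against 18% of all genes, with a median of 0.03). After the correction 5 were higher and 1 lower (median 0.06), where 27.4% of all genes were called (14.6% higher and 12.8% lower). RBX1, the RING subunit of the cullin ligase, rose from 4596 ± 155.8 to 5927 ± 500.5, a log2 change of 0.36 (adjusted p = 0.0034), and was called without each library in turn. After the correction the RBX1 change was 0.21 (adjusted p = 0.0025). NEDD8, the modifier that activates cullins, rose from 1503 ± 115 to 1920 ± 196.9 (adjusted p = 0.017), but not after the correction (0.06, adjusted p = 0.53). The replication licensing genes ORC1 and CDT1, whose products are degraded after ubiquitination by this ligase, rose by 0.34 and 0.27 on the log2 scale and were also called after the correction. CDKN1B, which encodes p27, had an NC mean of 3421 ± 24.1 and an siKIF15 mean of 3408 ± 77.6, with a log2 change of -0.01 (95% limits -0.15 to 0.14). The SKP2 cofactor gene CKS1B averaged 3682 ± 52 and 3866 ± 443.2. Neither the log2 ratio of SKP2 to CKS1B (difference 0.10, exact permutation p = 0.70) nor that of SKP2 to CDKN1B (0.17, p = 0.20) separated the groups. Without NC 2 or siKIF15 1 only 1 gene of this list, RBX1, was called. CDKN1B and CKS1B were named after their values had been seen.

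Of the 7 genes listed as the SIAH2 paralog and its substrates, 1 rose and 3 fell (57.1% called, against 18% of all genes, with a median of -0.35). Whether each listed product, that of EGLN1 among them, is a substrate of SIAH2 was not tested. After the correction the list median was -0.10, with 1 higher and 3 lower, where 27.4% of all genes were called (14.6% higher and 12.8% lower). HIPK2, a stress-activated kinase gene, fell from 7965 ± 414 to 5071 ± 1190 (-0.68 ± 0.12 SE, adjusted p = 0.0015). EGLN1, a prolyl hydroxylase of the oxygen-sensing pathway, fell from 3195 ± 234.1 to 2412 ± 71.6 (-0.40, adjusted p = 0.0018). Both were called without each library in turn. After the correction both changes were smaller and still called, at -0.43 (adjusted p = 0.00069) for HIPK2 and -0.22 (adjusted p = 0.016) for EGLN1. TRAF2, a signalling adaptor, rose from 1382 ± 33.1 to 1757 ± 207.3 (adjusted p = 0.019). NCOR1, the corepressor gene counted in the KDM1A and corepressor list too, fell from 6268 ± 274.9 to 4999 ± 1018 (adjusted p = 0.042), was called only without siKIF15 3 among the fits that left out 1 library, and was not called after the correction (-0.10). TRAF2 likewise was called only without siKIF15 3 among those fits, and was called after the correction at 0.22 (adjusted p = 0.013). The number called was 2 without any of the other 5 libraries.

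Of 18 other ubiquitin ligase and E2 enzyme genes linked to the receptor, 1 rose and 3 fell (22.2% called, against 18% of all genes; median -0.12). After the correction 4 were higher and 3 lower, where 27.4% of all genes were called (14.6% higher and 12.8% lower), and the median turned to 0.05. RNF6, a RING ligase gene, had NC values of 15851, 16925 and 16348, against siKIF15 values of 10480, 10121 and 13003. All siKIF15 values were below all NC values, a log2 change of -0.56 ± 0.09 (SE, adjusted p = 0.00035), and the call held without each library in turn and after the correction (-0.47, adjusted p = 4.7e-06). The cullin genes CUL4B and CUL3 fell by 0.40 and 0.39, and SPOP, the substrate adaptor often mutated in prostate cancer, rose from 2661 ± 161.5 to 3178 ± 147.9 (0.26, adjusted p = 0.028). The call of CUL3 ended after the correction (adjusted p = 0.087), and CUL4B moved to -0.21 (adjusted p = 0.0049). MDM2, the ligase of p53, and UBE3A, a HECT ligase, were then higher, at 0.43 (adjusted p = 1.3e-05) and 0.19 (adjusted p = 0.0058), where as deposited they were at 0.12 and -0.11 and not called. The number called ran from 1 without siKIF15 1 to 9 without siKIF15 3, where 30.6% of all genes were called.

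Deubiquitinases remove ubiquitin from proteins such as the receptor. Of 8 tested with their cofactors, 4 fell and none rose (50% called, where 18% of all genes were called and 8.33% were lower; median -0.20). USP46 fell from 3393 ± 126.6 to 2403 ± 220.5 (-0.50 ± 0.08 SE, adjusted p = 0.00048), USP12 from 2126 ± 22.2 to 1584 ± 159.8 (-0.43, adjusted p = 0.0027), USP7 from 5340 ± 379.6 to 4074 ± 380.9 (-0.39, adjusted p = 0.0035) and USP10 from 5872 ± 273 to 5083 ± 110.5 (-0.21, adjusted p = 0.044). All 4 were also called after the correction, where 27.4% of all genes were called and 12.8% were lower. Their changes then ran from -0.24 to -0.28, of which those of USP46 (-0.26) and USP12 (-0.27) were over 1.5 times smaller than as deposited. USP46 and USP12 were called without each library in turn, USP7 was not without siKIF15 1 (adjusted p = 0.059), and USP10 only without siKIF15 3. The number called was 2 without siKIF15 1 and 5 without siKIF15 3, where 30.6% of all genes were called.

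**Figure D5:**
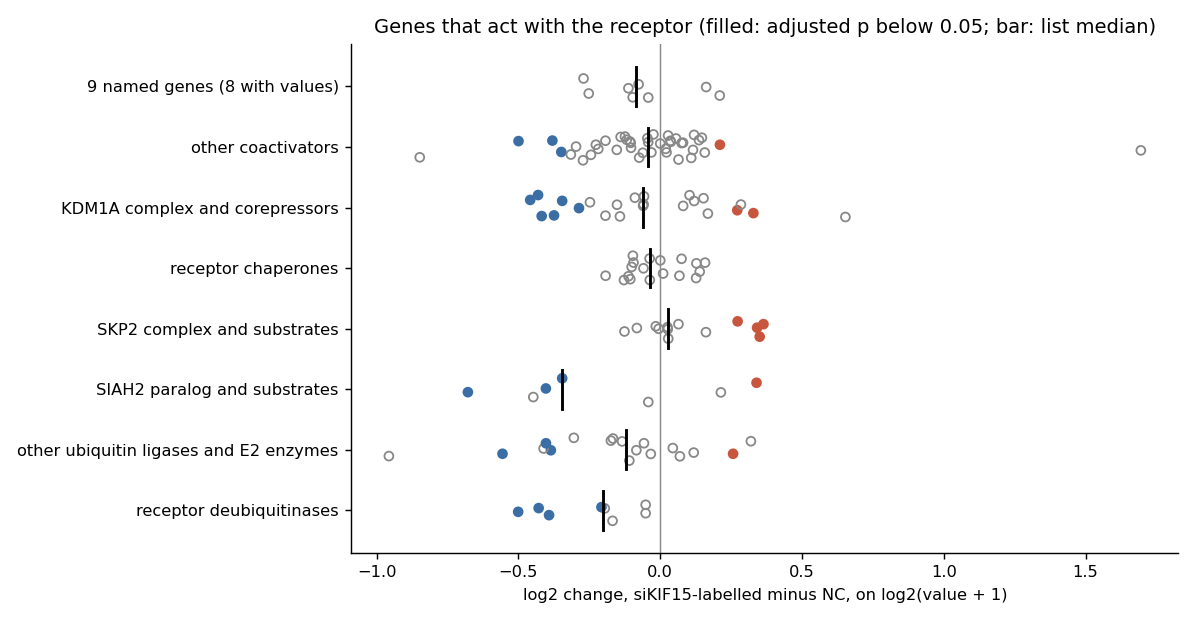
Log2 change, siKIF15 minus NC, of the 8 measured genes and of the genes of 7 related lists (points; filled orange, higher and filled blue, lower at a limma adjusted p below 0.05; black bar, list median). The 8 genes hold no filled point, and all 4 filled points of the deubiquitinases lie below 0.

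Across the 7 lists 27 different genes were called, of which 16 were still called when NC 1 was left out, 9 for NC 2, 14 for NC 3, 7 for siKIF15 1, 15 for siKIF15 2 and 27 for siKIF15 3. Of the named genes among these 27, SMARCE1, KMT2A, CDT1, SPOP, TRAF2, NCOR1 and USP10 were called only without siKIF15 3 among the fits that left out 1 library. Of the 27, 18 were called after the GC content and length correction with medians set equal.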

How the data were processed

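RNA-seq values of 6 human libraries were used, 3 per group, grouped by the sample titles. The authors deposited 1 signal value per gene symbol and library. The files' headers state no unit or normalization, and the low values look like counts adjusted to a common library size, which is an inference. Bowtie 0.12.2 is named in the submitters' processing notes, as are mm8 and mm9, which are mouse genome builds although the samples are human; the human build, annotation, counting and strand are not given in the sources used here. Depth is unknown, so no counting interval was used, and the precision is that of 3 libraries per group.

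Values were tested as log2(value + 1) for genes whose mean reached 1 in either group, with limma 3.58.1 in R 4.3.3 (variance trend, no covariate, Benjamini-Hochberg over all 16548 genes, threshold 0.05). The code was tested on simulated data. Lengths, GC content and coordinates come from GENCODE 29 (GRCh38; 16822 symbols matched directly, 5 through an older symbol, 529 not), using the longest coding transcript, and are not known to match the authors' annotation. The correction subtracted from each library a spline fit (4 degrees of freedom each) on GC content and log2 length over genes averaging at least 10. Of the symbols, 25 were calendar dates and 4 rows repeated a symbol; these are not named.

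The 9 genes and the lists were chosen with earlier results of these data known. From each list all called genes are named where they are 5 or fewer, otherwise the 4 with the smallest adjusted p; genes most alike in pattern were to be named only for called members, of which there were none. The receptor's own gene is not among the 9 and was not analysed here. Alternatives were other pseudocounts, filters and scalings, no variance trend, the replicate block, the correction, and leaving out each library.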

Additional observations from a re-analysis of the deposited data

How the results depend on the processing

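The 8 genes had no call in the values as deposited, nor with other pseudocounts, other filters, equal totals, median-ratio scaling or no variance trend. Quantile normalization gave 1 (SIAH2). The GC content and length correction with medians left free gave 4, also with the replicate block, and the version with medians set equal, added after seeing the data, gave 3 with and without the block. Without single libraries the number ran from 0 to 3, the 3 being EP300, NCOA2 and SIAH2 without siKIF15 3. The replicate numbers of the titles showed no pairing: the correlations of same-numbered deviations were 0.03, -0.06 and 0.02 over 13632 genes. Only siKIF15 1 correlated best with the library of its own number in the other group. The deviations also follow GC content and transcript length, so this check cannot decide whether the libraries were paired. With the replicate block 2 of the 8 genes were called, EP300 (adjusted p = 0.025) and NCOA2 (adjusted p = 0.0498), and 3184 of all genes in place of 2978.

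Over all genes 1070 were called with no variance trend (760 higher and 310 lower), 5051 after the correction with medians left free (1647 higher and 3404 lower), 5127 with that correction and the replicate block, and 4488 with medians set equal and the block. Without single libraries the number ran from 1184 to 5077. Scaling to equal totals gave 1204 higher and 1753 lower, against 1599 and 1379 as deposited. Of 171 alternative values of the 8 genes and KIF15, 141 kept sign and side of the threshold, 20 newly passed and 10 changed sign. NCOA1 was 0.078 after the correction with medians left free with or without the block, 0.15 with medians set equal in both fits, and -0.15 to 0.10 without single libraries (0.10 without siKIF15 2). CREBBP was 0.055 with medians set equal in both fits and -0.14 to 0.023 without single libraries (0.023 without siKIF15 2), and KIF15 was 0.0097 with medians set equal in both fits. The cause of these shifts was not tested. Depth, which the files do not give, limits what can be said of small differences.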
